A study of Saccharomyces cerevisiae with 6 samples.

Results

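Yeast cells hold cytosolic thiols in the reduced state with 2 systems that draw on NADPH, glutathione and thioredoxin. Glutathione is built in 2 steps from glutamate, cysteine and glycine, and its oxidized form is reduced again by a dedicated reductase. Thioredoxins, small proteins with a reactive pair of cysteines, are reduced by thioredoxin reductase and in turn reduce peroxiredoxins, the enzymes that destroy peroxides. Yap1, a transcription factor of the AP-1 type, is exported from the nucleus in unstressed cells, is retained there when peroxide oxidizes its cysteines, and is known as an activator of many of these genes in yeast. The genes described here are *YAP1* and 9 genes of these systems, chosen by name, with earlier results of these data known. The 9 are *GSH1*, *GSH2* and *GLR1* for glutathione, *TRX1*, *TRX2* and *TRR1* for thioredoxin, and *AHP1*, *TSA1* and *TSA2* for peroxiredoxins. All 10 were found among the 7122 genes of the deposited table.

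RNA was sequenced from 3 *ths1-C268A* and 3 WT samples, each strain with replicates named A, B and C, pregrown at 30 °C in rich medium with glucose and collected after 2 h at 37 °C. *ths1-C268A* replaces a Cys by Ala in the editing domain of threonyl-tRNA synthetase (ThrRS), which attaches Thr to its tRNA and clears wrongly attached Ser. The parent of both strains is BY4741, a haploid laboratory strain that lacks functional *HIS3*, *LEU2*, *MET17* and *URA3*. The study describes the mutant as made by CRISPR, calls the replicates biological, and states that the mutation both abolishes editing and lowers the stability of ThrRS in the heat, so these effects cannot be told apart here. No sample was kept at 30 °C, so the response to the heat shift itself is not measured. As a check of the background, *LEU2*, *MET17* and *URA3*, deleted in BY4741, were listed at 0 in all 6 samples, whereas *HIS3*, deleted only in part, had 197 to 271 FPKM in *ths1-C268A* and 86.4 to 106 FPKM in WT. Because *ths1-C268A* is a point mutation, no expression value checks the strain labels.

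The values are FPKM, fragments scaled to gene length and library depth, with 17806318 to 19114041 fragments in genes in *ths1-C268A* samples and 16597937 to 17761143 in WT samples. The depth used in the FPKM, recovered from the values, was larger, 19916890 to 21692557 in *ths1-C268A* samples and 20383352 to 21837705 in WT samples. Fragments in genes were thus a smaller part of that depth in WT than in *ths1-C268A*. Each of the 10 genes had at least 671 fragments in every sample. None of them overlaps another gene of the table. The test was limma's, fitted to log2(FPKM + 1) of the 6447 genes that averaged 1 FPKM or more, and a gene is said to be higher or lower where the Benjamini-Hochberg adjusted p over all these genes was under 0.05. Over all genes, 916 were higher and 783 lower, so that 53.9% of the calls were higher. Higher genes made up 40.7% of the calls once protein-coding FPKM was scaled to an equal sum, and 30.6% of them with limma-voom on fragments. The limma-voom fit took the fragments in genes as the depth, and put the median of all genes at -0.12 on the log2 scale. RNA came from whole cultures, so that a change in every cell and a larger change in some of the cells cannot be told apart.

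Of the 10 genes, 6 were higher in *ths1-C268A* than in WT, none was lower and the other 4 did not pass, where 14.2% of all genes tested were higher, 12.1% lower and 26.4% either. In the limma fit 7 of the 10 had an unadjusted p under 0.05, all of them higher. Of all genes tested, 21.8% had such a p in that direction and 19.4% in the other. With limma-voom 3 of the 10 were higher and 1, *TRX1*, was lower, where 613 of all 6447 genes were higher and 1387 lower. The direction of *TRX1* turned with a correction for gene length. The 6 genes higher in the main test were *GSH1*, *TRX2*, *AHP1*, *GSH2*, *TSA2* and *YAP1*, with log2 fold changes between 0.28 and 0.52. The 4 others were *TSA1*, *GLR1*, *TRR1* and *TRX1*. The median log2 fold change of the 10 genes was 0.29, against -0.0025 for all genes tested. By sample values alone, 7 of the 10 had every *ths1-C268A* sample above every WT sample, as did 24.5% of all genes tested, and 1, *TRX1*, had every *ths1-C268A* sample below before any length correction, as did 21.1% of all genes tested. The call of *GSH1* was kept in all 17 alternative ways of processing, whereas each of the other 5 lost its call in at least 3 of them, and all 5 lost it without WT replicate A and again without WT replicate B.

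**Figure D1:**
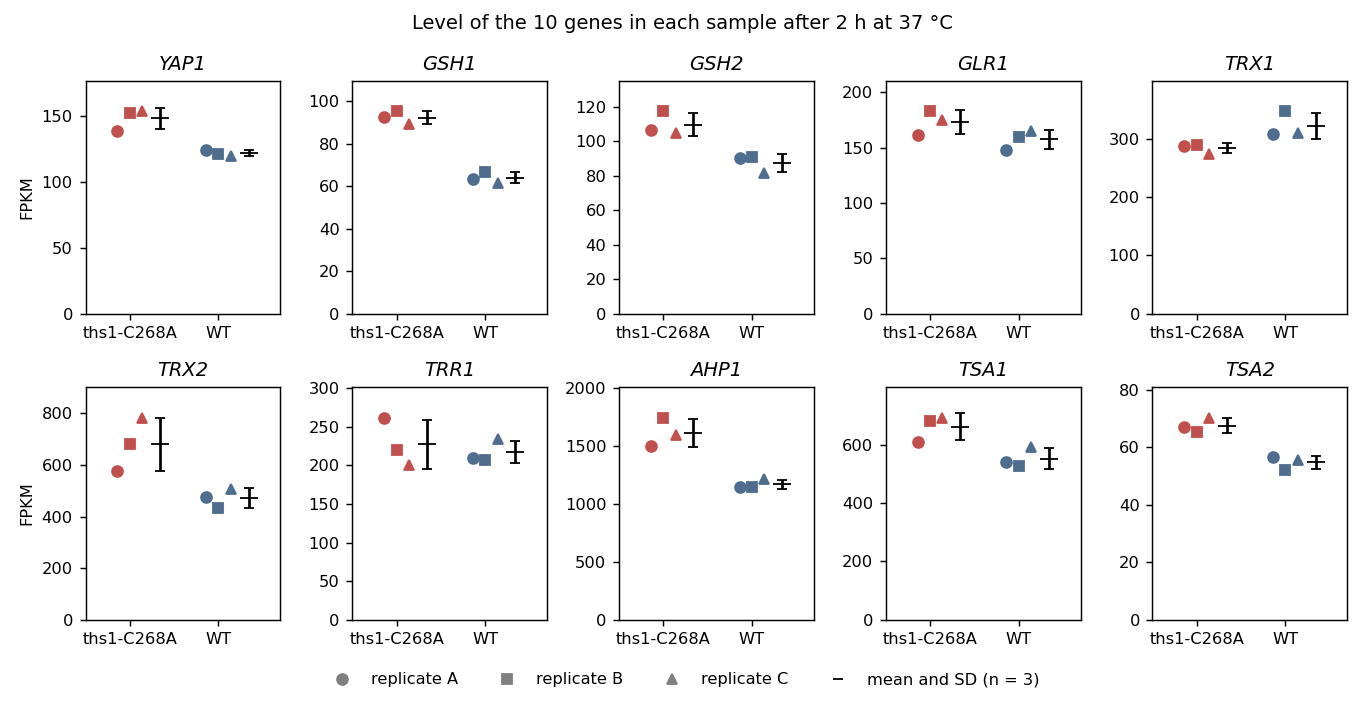
FPKM of each of the 10 genes in every sample, with *ths1-C268A* on the left and WT on the right of each panel, a marker shape for each replicate letter, and the mean with its SD beside the points. Each vertical axis starts at 0 and has its own range. *GSH1*, *GSH2*, *YAP1*, *TRX2*, *AHP1*, *TSA1* and *TSA2* show no overlap between the strains, all with *ths1-C268A* above, and *TRX1* shows none with *ths1-C268A* below, a direction that turned with the correction for gene length.

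*YAP1* (YML007W, chromosome XIII of R64, 253848 to 255800) had 139, 152 and 153 FPKM in *ths1-C268A* samples A, B and C, against 124, 121 and 119 FPKM in WT samples A, B and C. All mutant samples lay above all WT samples, and the WT values were close together. The means were 148 ± 8.01 FPKM in *ths1-C268A* and 122 ± 2.32 FPKM in WT (SD, n = 3 each), a ratio of 1.22. The log2 fold change was 0.28 (standard error 0.077, adjusted p = 0.0313 from limma). The call was lost without WT replicate A, B or C (adjusted p = 0.0816, 0.127 and 0.101 from limma), without *ths1-C268A* replicate B or C (0.0670 and 0.0617), with an equal protein-coding total (0.0714) and with limma-voom (log2 fold change 0.17, 0.12). It was also lost with a correction for gene length, where the log2 fold change was 0.18 (adjusted p = 0.0871 from limma).

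*GSH1* encodes gamma-glutamylcysteine synthetase, which joins glutamate to cysteine in the first and rate-limiting step of glutathione synthesis. The gene (YJL101C, chromosome X of R64, 234320 to 236356) had 92.4, 95.2 and 89.3 FPKM in *ths1-C268A* samples A, B and C, against 63.5, 66.7 and 61.6 FPKM in WT samples A, B and C. The strains were well apart, with the lowest mutant sample far above the highest WT sample. The means were 92.3 ± 2.94 FPKM in *ths1-C268A* and 63.97 ± 2.58 FPKM in WT (SD, n = 3 each), a ratio of 1.44. The log2 fold change was 0.52 (95% interval 0.35 to 0.70, standard error 0.076, adjusted p = 0.00333 from limma). This was the smallest p of the 10 genes, and over the alternatives the log2 fold change lay between 0.41 and 0.55 with adjusted p from 0.00255 to 0.0214.

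*GSH2* encodes glutathione synthetase, which adds glycine in the last step. *GSH2* (YOL049W, chromosome XV of R64, 238619 to 240094) had 106, 117 and 105 FPKM in *ths1-C268A* samples A, B and C, against 90.5, 91.0 and 81.7 FPKM in WT samples A, B and C. Mutant samples were again all above WT samples, but by less than for *GSH1*. The means were 110 ± 6.78 FPKM in *ths1-C268A* and 87.7 ± 5.24 FPKM in WT (SD, n = 3 each), a ratio of 1.25, and the log2 fold change was 0.32 (standard error 0.085, adjusted p = 0.0282 from limma). Without WT replicate A, B or C (adjusted p = 0.0694, 0.0846 and 0.105 from limma) or *ths1-C268A* replicate B (0.0673) it did not pass, nor with an equal protein-coding total (0.0608) or with limma-voom (log2 fold change 0.21, 0.0809).

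*GLR1* encodes glutathione reductase, which returns oxidized glutathione to its reduced form with NADPH. *GLR1* (YPL091W, chromosome XVI of R64, 375502 to 376953) had 162, 183 and 175 FPKM in *ths1-C268A* samples A, B and C, against 148, 160 and 165 FPKM in WT samples A, B and C. The strains overlapped, since *ths1-C268A* replicate A lay below WT replicate C. The log2 fold change was 0.14 (95% interval -0.057 to 0.33, adjusted p = 0.253 from limma), and it passed in none of the 17 alternatives, with adjusted p from 0.127 to 0.859. In the glutathione branch the fold change was larger for the gene of the first step than for that of the last, and the reductase gene did not pass. The difference between these genes was not tested.

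The cytosolic thioredoxins Trx1 and Trx2 are paralogues. Their coding sequences in R64, of 312 and 315 bp, are 73.0% identical, and the proteins, of 103 and 104 residues, are 77.9% identical. The longest stretch the coding sequences share is 17 bp, and no stretch of 50 bp of either occurs in the other. How the authors' counting placed fragments that match both is not stated. *TRX2* (YGR209C, chromosome VII of R64, 912913 to 913227) had 576, 680 and 784 FPKM in *ths1-C268A* samples A, B and C, against 475, 431 and 507 FPKM in WT samples A, B and C. All mutant samples were above all WT samples, with a wide spread among the mutant samples. The means were 680 ± 104 FPKM in *ths1-C268A* and 471 ± 37.9 FPKM in WT (SD, n = 3 each), a ratio of 1.44, and the log2 fold change was 0.52 (95% interval 0.22 to 0.82, standard error 0.13, adjusted p = 0.0222 from limma). The call was lost without WT replicate A or B (adjusted p = 0.0682 and 0.0984 from limma), without *ths1-C268A* replicate B (0.0564) and with no filter on low genes (0.0588).

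*TRX1* (YLR043C, chromosome XII of R64, 231702 to 232013) had 288, 289 and 274 FPKM in *ths1-C268A* samples A, B and C, against 308, 347 and 310 FPKM in WT samples A, B and C. It was the only 1 of the 10 genes with all mutant samples below all WT samples. The means were 284 ± 8.42 FPKM in *ths1-C268A* and 321 ± 22.0 FPKM in WT (SD, n = 3 each), and the log2 fold change was -0.18 (95% interval -0.37 to 0.018, adjusted p = 0.152 from limma), which did not pass the test. The direction depended on the correction for gene length, with which the log2 fold change of *TRX1* was 0.072 (adjusted p = 0.604 from limma). With limma-voom *TRX1* was lower (log2 fold change -0.30, adjusted p = 0.0262 from limma), in a fit where the median of all genes was -0.12. In the main test that median was -0.0025. In these libraries, deviations from the mean of a gene were related to its length, with Spearman's rho over 6176 coding genes (genes are no independent replicates) of -0.084, 0.36 and 0.39 in *ths1-C268A* samples A, B and C and of -0.14, -0.32 and -0.43 in WT samples A, B and C. *TRX1* and *TRX2* are the shortest of the 10 genes, and their ratio within a sample compares genes of nearly equal length.

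Within each sample *TRX2* exceeded *TRX1*, and more so in the mutant. The ratio of *TRX2* to *TRX1* FPKM was 2.00, 2.35 and 2.86 in *ths1-C268A* samples A, B and C, against 1.54, 1.24 and 1.64 in WT samples A, B and C. The ratios did not overlap between the strains. The mean ratio was 2.40 ± 0.433 in *ths1-C268A* and 1.47 ± 0.205 in WT (SD, n = 3 each), a difference of 0.70 on the log2 scale. The two-sided exact permutation test gave p = 0.1, the smallest that 3 samples against 3 allow, so this test cannot take the difference past 0.05. *TRX2* made up 70.3 ± 3.72% of the summed *TRX1* and *TRX2* FPKM in *ths1-C268A* and 59.4 ± 3.50% in WT (SD, n = 3 each), and that sum was 864 to 1057 FPKM in *ths1-C268A* and 778 to 817 FPKM in WT.

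**Figure D2:**
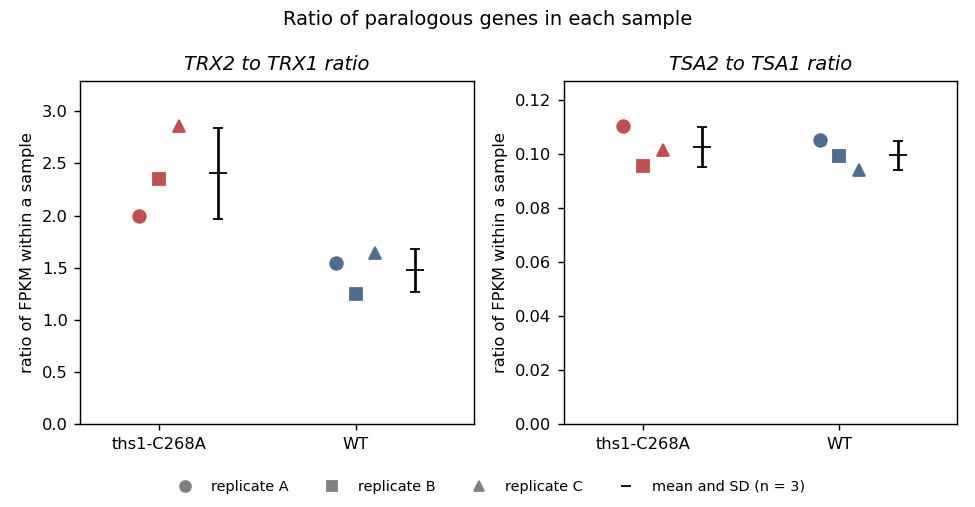
Ratio of FPKM within each sample for *TRX2* to *TRX1* on the left and *TSA2* to *TSA1* on the right, with *ths1-C268A* left of WT in each panel, a marker shape for each replicate letter, and the mean with its SD beside the points. Both vertical axes start at 0. The thioredoxin ratio lies at or above 2.00 in all *ths1-C268A* samples and at or below 1.64 in all WT samples, whereas the peroxiredoxin ratios overlap between the strains.

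*TRR1* encodes the cytosolic thioredoxin reductase that keeps both thioredoxins reduced. *TRR1* (YDR353W, chromosome IV of R64, 1183299 to 1184258) had 262, 220 and 200 FPKM in *ths1-C268A* samples A, B and C, against 210, 207 and 233 FPKM in WT samples A, B and C. Mutant samples lay on either side of the WT samples. The log2 fold change was 0.060 (95% interval -0.20 to 0.32, adjusted p = 0.712 from limma). Its sign turned with limma-voom (-0.056, where the median of all genes was -0.12) and without *ths1-C268A* replicate A (-0.045). None of the 17 alternatives brought *TRR1* past the threshold.

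*AHP1* encodes a peroxiredoxin with a preference for alkyl hydroperoxides, and was the most abundant of the 10 transcripts in every sample. *AHP1* (YLR109W, chromosome XII of R64, 368781 to 369311) had 1505, 1748 and 1594 FPKM in *ths1-C268A* samples A, B and C, against 1151, 1146 and 1216 FPKM in WT samples A, B and C. All mutant samples were above all WT samples. The means were 1616 ± 123 FPKM in *ths1-C268A* and 1171 ± 39.3 FPKM in WT (SD, n = 3 each), a ratio of 1.38, and the log2 fold change was 0.46 (95% interval 0.20 to 0.72, standard error 0.12, adjusted p = 0.0220 from limma). The call was lost without WT replicate A, B or C (adjusted p = 0.0841, 0.107 and 0.0523 from limma) and kept in the other 14 alternatives.

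Tsa1 is the main cytosolic peroxiredoxin of yeast and also binds ribosomes, and Tsa2 is its less abundant, stress-inducible paralogue. Their coding sequences, of 591 bp each, are 78.5% identical and share no stretch longer than 14 bp, and the proteins, of 196 residues each, are 85.7% identical. *TSA1* (YML028W, chromosome XIII of R64, 220138 to 220728) had 608, 682 and 692 FPKM in *ths1-C268A* samples A, B and C, against 539, 525 and 591 FPKM in WT samples A, B and C. The mutant samples were all above the WT samples, with a narrow gap between *ths1-C268A* replicate A and WT replicate C. The log2 fold change was 0.26 (95% interval 0.030 to 0.49), which did not pass after adjustment over all genes (adjusted p = 0.0883 from limma). It passed without *ths1-C268A* replicate A (adjusted p = 0.0485 from limma) and with the correction for gene length (log2 fold change 0.40, 0.0412).

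*TSA2* (YDR453C, chromosome IV of R64, 1365072 to 1365662) had 67.2, 65.3 and 70.4 FPKM in *ths1-C268A* samples A, B and C, against 56.7, 52.2 and 55.7 FPKM in WT samples A, B and C. All mutant samples were above all WT samples. The means were 67.6 ± 2.58 FPKM in *ths1-C268A* and 54.9 ± 2.33 FPKM in WT (SD, n = 3 each), a ratio of 1.23, and the log2 fold change was 0.30 (standard error 0.079, adjusted p = 0.0278 from limma). The call was lost without WT replicate A, B or C (adjusted p = 0.0684, 0.137 and 0.0791 from limma) or *ths1-C268A* replicate C (0.0562), with an equal protein-coding total (0.0578) and with limma-voom (log2 fold change 0.19, 0.176).

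*TSA2* passed the test and *TSA1* did not, so the pair was compared within samples. The ratio of *TSA2* to *TSA1* FPKM was 0.111, 0.0958 and 0.102 in *ths1-C268A* samples A, B and C, against 0.105, 0.0995 and 0.0942 in WT samples A, B and C, and the strains overlapped. The difference of the mean log2 ratios was 0.043 (two-sided exact permutation test, p = 0.6), and it turned to -0.012 without *ths1-C268A* replicate A. The summed FPKM of *AHP1*, *TSA1* and *TSA2* was 2344 ± 158 in *ths1-C268A* and 1778 ± 75.0 in WT (SD, n = 3 each). Of this sum, *AHP1* made up 69.0, 70.1 and 67.6% in *ths1-C268A* samples A, B and C, against 65.9, 66.5 and 65.3% in WT samples A, B and C.

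**Figure D3:**
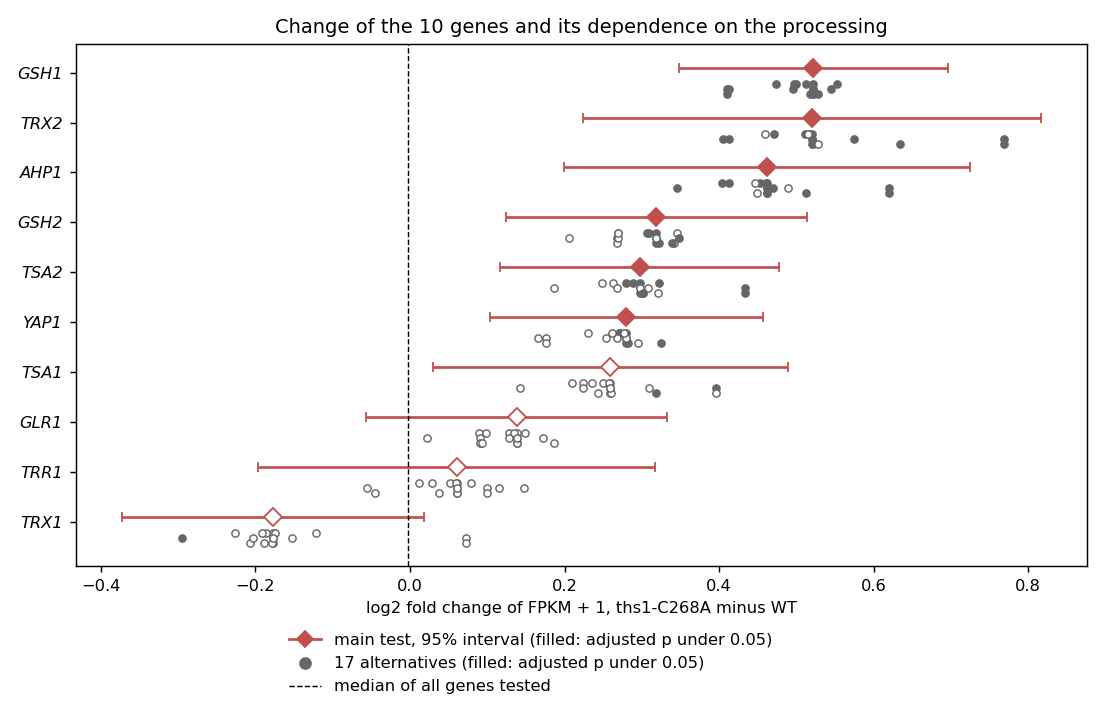
Log2 fold change of FPKM + 1, *ths1-C268A* minus WT, for each of the 10 genes. Diamonds with bars give the main test and its 95% interval, circles the 17 alternatives, filled where the adjusted p was under 0.05. The dashed line is the median of all genes in the main test, and the alternatives have their own medians, -0.12 with limma-voom. *GSH1* is filled throughout, between 0.41 and 0.55, whereas *TRX1* lies below the line in the main test and above it with the correction for gene length.

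The order of the levels per length was nearly the same in both strains. In *ths1-C268A* it ran *AHP1*, *TRX2*, *TSA1*, *TRX1*, *TRR1*, *GLR1*, *YAP1*, *GSH2*, *GSH1* and *TSA2*, and in WT *TSA1* stood above *TRX2* with the rest in the same order. Of neighbours in this order, *TRX2* and *TSA1* overlapped in *ths1-C268A*, and no neighbours overlapped in WT. The summed FPKM of the 10 genes was 3805, 4232 and 4138 in *ths1-C268A* samples A, B and C, against 3164, 3147 and 3341 in WT samples A, B and C.

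The upstream sequences were searched for the letters of sites that Yap1 is known to bind. On either strand of the 500 bp before the start codon in R64, 6 of the 10 genes held TTACTAA or the forms TGACTAA or else TTACGTAA at least once, against 18.0% of 5978 protein-coding genes. Of these 6 genes, *GSH1*, *TRX2*, *AHP1* and *TSA2* were higher and *GLR1* and *TRR1* did not pass the test. Of the 4 without such letters, *YAP1* and *GSH2* were higher. No printed site overlaps another. The site of Gcn4, TGACTCA, the activator of amino acid synthesis genes, was in none of the 10 windows and in 4.00% of the 5978. These matches describe the sequence and do not show binding. The 10 genes were chosen as *YAP1* and genes linked to it, so the 6 of 10 against 18.0% can come from the choice alone. *GSH1* and *TRX2* had the largest fold changes of the 10 in the main test. With the length correction the log2 fold changes were 0.77 for *TRX2*, 0.62 for *AHP1*, 0.43 for *TSA2* and 0.41 for *GSH1*. All sites of *GSH1* and *TRX2*, and of the reductase genes that did not pass, are shown from RefSeq's R64 genome. They are given 5′ to 3′ in the direction of the gene. Capitals mark the matching letters, read on the opposite strand except in the second *TRX2* site and in TTACGTAA, which reads the same on both strands.
GSH1, 384 to 378 bp before the start codon, chrX:236724-236750, minus strand: acggctgccaTTAGTCAgcatggcgcg
TRX2, 217 to 211 bp before the start codon, chrVII:913428-913454, minus strand: gtttatactcTTAGTAAaggatgctcc
TRX2, 181 to 175 bp before the start codon, chrVII:913392-913418, minus strand: ggctcttttcTTACTAAgcgcgttcag
TRR1, 404 to 397 bp before the start codon, chrIV:1182885-1182912, plus strand: agcgccagttTTACGTAAaaccgtctat
TRR1, 192 to 186 bp before the start codon, chrIV:1183097-1183123, plus strand: tagcttctccTTAGTCAtggagaaaaa
GLR1, 191 to 185 bp before the start codon, chrXVI:375301-375327, plus strand: ttgacgtcacTTAGTAAgcacgaccct

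*TRX2* was the only 1 of the 10 genes with a repeated form, TTACTAA on both strands. How many of all genes hold a repeated form was not counted. The form TGACTAA was upstream of 3 of the 10 genes, against 5.97% of 5978 protein-coding genes. Of the 3, *GSH1* and *TSA2* were higher and *TRR1* did not pass. The form TTACTAA was upstream of 4 of the 10, against 11.8% of the 5978. Of the 4, *TRX2*, *AHP1* and *TSA2* were higher and *GLR1* did not pass. These counts, too, can come from the choice of the 10 genes alone.

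Other genes of these pathways, in lists written from textbook knowledge with earlier results known, are given by their counts. Of all genes tested, 14.2% were higher and 12.1% lower, and 21.8% and 19.4% had an unadjusted p under 0.05 in these directions (limma). With limma-voom 613 of the 6447 genes were higher and 1387 lower. With the equal protein-coding total 669 were higher and 975 lower, and with the length correction 829 and 719. A count near these shares is no result about its list. None of 8 glutaredoxin genes passed in the limma fit, where 1 was lower at an unadjusted p under 0.05 and 2 were lower with limma-voom, and their median log2 fold change was -0.064. Glutaredoxins are the oxidoreductases that use glutathione as their electron donor. Of 18 genes tested for the use, transport and breakdown of glutathione, 2 passed, both higher, and 16 did not (median -0.011), whereas with limma-voom 1 was higher and 3 were lower, and with an equal protein-coding total 1 was higher and 1 lower. *BPT1*, a vacuolar transporter of glutathione conjugates, had 48.8 ± 3.98 FPKM in *ths1-C268A* and 35.2 ± 2.05 FPKM in WT (SD, n = 3 each; log2 fold change 0.46, adjusted p = 0.0111 from limma), and lost its call without WT replicate B or C (0.0586 and 0.0506). With the length correction its log2 fold change was 0.23 (adjusted p = 0.0479 from limma), and adding the replicate block ended that call (0.104). The other was *OPT1*, which imports glutathione (log2 fold change 0.33, adjusted p = 0.0377 from limma), and it lost its call in 12 of the 17 alternatives, among them each fit without 1 WT sample (0.0770 to 0.133) and the length correction (log2 fold change 0.19, 0.112).

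Among 7 other genes of the thioredoxin and peroxiredoxin system, 2 passed, both higher (median log2 fold change -0.034), where 14.2% of all genes tested were higher. *MXR1*, the cytosolic methionine sulfoxide reductase that takes its electrons from thioredoxin, had 172, 196 and 168 FPKM in *ths1-C268A* samples A, B and C, against 95.2, 92.6 and 88.0 FPKM in WT samples A, B and C. Its log2 difference, 0.95 with a standard error of 0.087 (limma, adjusted p = 4.1e-04), was larger than that of any of the 10 genes. *TRX3*, the mitochondrial thioredoxin, had 102, 134 and 130 FPKM in *ths1-C268A* samples A, B and C, against 60.5, 67.4 and 80.4 FPKM in WT samples A, B and C (log2 fold change 0.80, adjusted p = 0.00594 from limma). Both calls were kept in all 17 alternatives. *PRX1*, *DOT5*, *SRX1*, *MXR2* and *TRR2* did not pass. Of these, *PRX1* was lower at an unadjusted p under 0.05 (log2 fold change -0.30, unadjusted p = 0.0409 from limma). With limma-voom 2 genes of the list were higher and 1 was lower.

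Of 6 genes for catalases, superoxide dismutases, the copper chaperone of Sod1 and cytochrome c peroxidase, 1 passed, *CTA1*, the peroxisomal catalase, which was lower, as were 12.1% of all genes tested. The median of the 6 log2 fold changes was -0.067. *CTA1* had 55.8, 30.0 and 51.1 FPKM in *ths1-C268A* samples A, B and C, against 85.6, 89.5 and 103 FPKM in WT samples A, B and C (log2 fold change -1.05, adjusted p = 0.010 from limma). Its call was lost with no filter on low genes (adjusted p = 0.0545 from limma). *CTT1*, *SOD1*, *SOD2*, *CCS1* and *CCP1* did not pass.

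Of 6 genes that control Yap1 or act with it, *SKN7* alone passed, and was higher, as were 14.2% of all genes tested, with a list median of 0.28. The number of higher genes was 4 without *ths1-C268A* replicate A and 0 without WT replicate B, where 16.9% and 5.52% of all genes tested were higher. In the limma fit of all samples 4 had an unadjusted p under 0.05, all higher, as had 21.8% of all genes tested in that direction. Skn7 is a response regulator that activates *TRX2* and other peroxide genes together with Yap1. *SKN7* had 112, 125 and 127 FPKM in *ths1-C268A* samples A, B and C, against 94.0, 89.2 and 91.0 FPKM in WT samples A, B and C (log2 fold change 0.41, adjusted p = 0.010 from limma), and its call was lost without WT replicate B (0.0592). *HYR1*, the peroxidase that senses peroxide for Yap1, had 214 FPKM in *ths1-C268A* and 238 FPKM in WT (limma, adjusted p = 0.278), a gene picked with its value in view. Of 14 other targets of Yap1, the 2 that passed, *TRX3* and the multidrug transporter *SNQ2*, were higher (median 0.18), near the 14.2% of all genes tested. At an unadjusted p under 0.05 in the limma fit 5 of the 14 were higher and 2 lower, as were 21.8% and 19.4% of all genes tested. With limma-voom 1 was higher and 2 were lower, with an equal protein-coding total 1 was higher and 1 lower, and with the length correction 3 were higher and 1 lower. For *SNQ2* the log2 difference was 0.46 (limma, adjusted p = 0.0371), and it lost its call in 11 of the 17 alternatives, among them the fits without WT replicate B or C (0.109 and 0.126) and without *ths1-C268A* replicate B or C (0.0913 and 0.0674), and the length correction (log2 difference 0.23, 0.103).

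**Figure D4:**
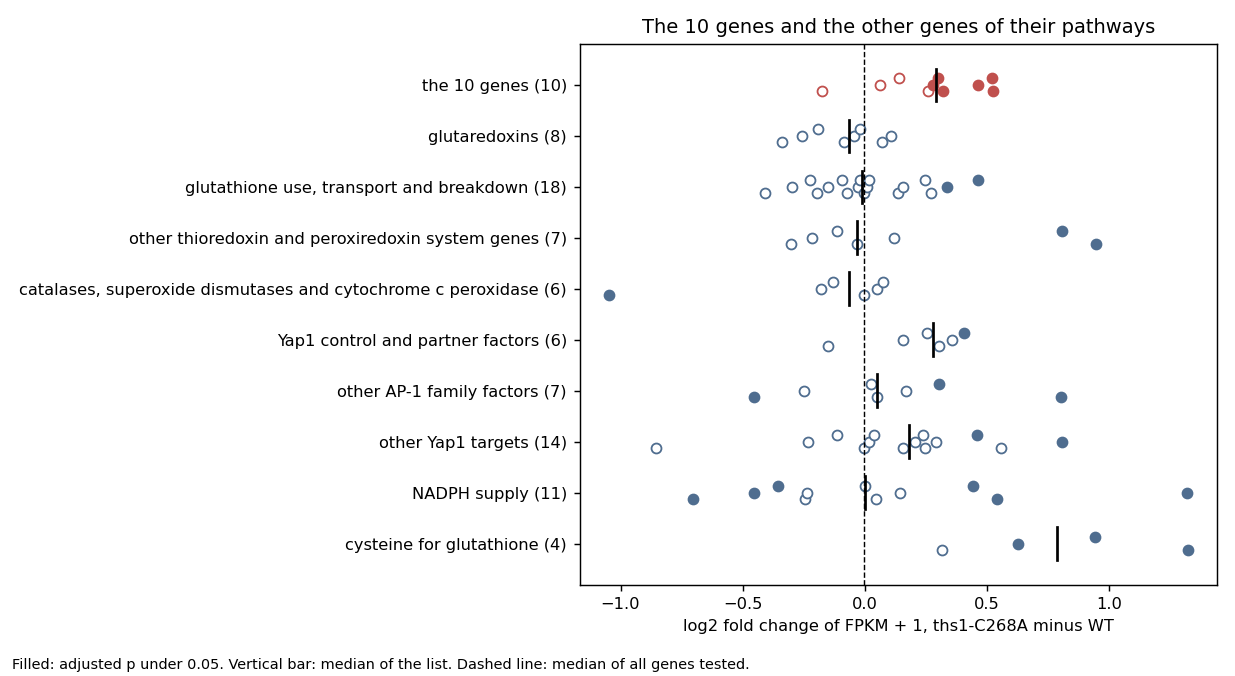
Log2 fold change of FPKM + 1, *ths1-C268A* minus WT, of every tested gene of the 10 genes and of 9 lists of related genes, with the number of genes tested in brackets. Points are filled where the adjusted p was under 0.05, vertical bars give the median of each list, and the dashed line is the median of all genes tested. The 10 genes have a median of 0.29, whereas the glutaredoxins and the catalase list have medians of -0.064 and -0.067, and 7 genes stand in more than 1 list.

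The genes whose values over the 6 samples were most like those of *YAP1* and *GSH1* were found among all 6447 genes by the root mean square difference of log2(FPKM + 1) after each gene was centred on its mean. For *YAP1* these were *AVT4* (difference 0.019), *PLB1* (0.021) and *FRE8* (0.022). For *GSH1* they were *HUL5* (0.021), *AAT2* (0.030) and *UGA3* (0.032). *AAT2*, the cytosolic aspartate aminotransferase, had 358 FPKM in *ths1-C268A* and 244 FPKM in WT.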

How the data were processed

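The authors deposited 1 table of FPKM values with gene coordinates and gene lengths. Novogene prepared the libraries and sequenced them on an Illumina instrument, and the submitters' processing notes name HISAT2. For the counter, annotation, strandedness and build nothing was given in the sources used here, but all 10 genes have the coordinates of R64. FPKM multiplied by length gave whole fragments, within 0.01, for 100% of values above 0.

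Strains were compared with limma 3.58.1 in R 4.3.3 (trended empirical Bayes, two-sided) on log2(FPKM + 1), which understates the change of low genes. Ratios were compared with exact permutation tests. The 17 alternative fits used pseudocounts of 0.1 or 5, no filter or only genes averaging 10 FPKM or more, scaling by median ratios, an equal FPKM sum of protein-coding genes, no trend, limma-voom, the replicate letter as a block, a loess correction for gene length (span 0.5) without and with that block, and each sample left out. The fit was tested on simulated fragments, where it recovered 86% of log2 changes of 0.5 and 99% of those of 1. The simulation gave all genes the same dispersion, 0.005, and no relation to gene length. It therefore does not cover the spread and length trends of these samples.

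The members and lists were chosen with earlier results of these data known. Named genes were the 10 members, up to 4 genes past the threshold with the smallest p in each list, the 3 genes most like *YAP1* and *GSH1*, and the genes deleted in BY4741. Named outside this rule, with values in view, were *HYR1*, *CYS4*, *GND2*, *SOL3* and the genes of the thioredoxin and catalase lists that did not pass. Samples of 1 strain differed by more than sampling noise (chi-square per degree of freedom 7.72 to 53.2). A count of 0 in a sample allows up to 0.137 to 0.151 FPKM for a gene of 1 kb, which covers counting error only.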

Additional observations from a re-analysis of the deposited data

How the results depend on the processing

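The 10 genes kept their direction in 166 of 170 combinations of gene and alternative. The 4 exceptions were *TRX1* with the length correction, without and with the replicate block (0.072 each), and *TRR1* with limma-voom (-0.056) and without *ths1-C268A* replicate A. For *TRR1* leaving out samples gave log2 fold changes of -0.045 to 0.15. The median of all genes with limma-voom was -0.12. The 6 higher genes kept their call in 70 of 102 combinations, and the other 4 genes gained one in 3. The number of the 10 genes past the threshold was 6 in the test as reported. It was 3 with protein-coding FPKM scaled to an equal sum, 3 with the replicate block, and 1 to 7 when samples were left out, with 1 without WT replicate A or B, 2 without WT replicate C and 3 without *ths1-C268A* replicate B. With limma-voom it was 4, of which 3 were higher and *TRX1* was lower. Of all genes tested, 25.5% passed with the equal sum, 19.8% with the replicate block and 31.0% with limma-voom, in either direction. Without WT replicate A, B or C 13.2%, 10.02% and 12.3% passed, and without *ths1-C268A* replicate B 17.5%. With the equal sum, with limma-voom and without WT replicate A or B, the count of the 10 genes was thus near the share of all genes. Those of the 10 that passed with the equal sum and without WT replicate A or B were higher. In these 3 fits 10.4%, 7.07% and 5.52% of all genes tested were higher. Of all genes, 1699 passed in the test as reported, against 850, 646 and 791 without WT replicate A, B or C and 1128 without *ths1-C268A* replicate B, and with limma-voom 613 were higher and 1387 lower. Deviations of samples with the same letter correlated at -0.23, 0.062 and -0.011, and those of samples with other letters at -0.20 to 0.21. The correlations thus showed no pairing by letter. Whether samples with the same letter were handled together is not stated in the labels. The block left *GSH1*, *TRX2* and *AHP1* past the threshold. The difference of the log2 ratio of *TSA2* to *TSA1* was -0.012 to 0.091 when samples were left out, and that of *TRX2* to *TRX1* was 0.57 to 0.82. The lowest count of the 10 genes in a sample was 671 fragments, which limits the precision of that gene by counting error.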

Other observations

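Glutathione needs cysteine, and its recycling needs NADPH, so genes of these supplies were counted too. Of 4 genes of transsulfuration, 3 passed, all higher in *ths1-C268A* (median log2 fold change 0.78), where 14.2% of all genes tested were higher. *CYS3*, cystathionine gamma-lyase, which releases cysteine, had 254, 457 and 261 FPKM in *ths1-C268A* samples A, B and C, against 196, 164 and 131 FPKM in WT samples A, B and C (log2 fold change 0.94, adjusted p = 0.0216 from limma). It lost its call without WT replicate B or C (adjusted p = 0.0636 and 0.0801 from limma) and with no filter on low genes (0.0865). *STR2* and *STR3*, which act in the other direction and carry sulfur away from cysteine toward homocysteine, had log2 fold changes of 0.63 and 1.32 (adjusted p = 0.00284 and 0.00327 from limma), kept in all 17 alternatives. *CYS4*, cystathionine beta-synthase, had 445 FPKM in *ths1-C268A* and 358 FPKM in WT and did not pass (limma, adjusted p = 0.0607), and was picked with its value in view.

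Genes of NADPH supply split by enzyme, with 3 of 11 higher, 3 lower and a median log2 fold change of 0.0019, where 14.2% of all genes tested were higher and 12.1% lower. The number of lower genes was 5 with limma-voom, 1 without WT replicate A or B and 2 without WT replicate C, and that of higher genes was 3 in each of these fits. Higher were *IDP1*, an isocitrate dehydrogenase of mitochondria that makes NADPH (log2 fold change 1.32, adjusted p = 1.4e-04 from limma), *ZWF1*, glucose-6-phosphate dehydrogenase (0.54, 0.00534), and *POS5*, the mitochondrial NADH kinase (0.44, 0.00837). *ZWF1*, the entry to the pentose phosphate pathway, had 593, 570 and 606 FPKM in *ths1-C268A* samples A, B and C, against 406, 382 and 430 FPKM in WT samples A, B and C. Further along that pathway *TAL1*, transaldolase, which makes no NADPH itself, had 345 FPKM in *ths1-C268A* and 472 FPKM in WT (log2 fold change -0.45, adjusted p = 0.0132 from limma), a call lost without WT replicate A or B (0.0507 and 0.0710). The other lower genes were *GND2* (-0.70) and *SOL3* (-0.36), picked with their values in view. The calls of *IDP1*, *ZWF1* and *POS5* were kept in all 17 alternatives.

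Of 7 other AP-1 family factors, *YAP6* and *YAP5* were higher, *CIN5* was lower and 4 did not pass, where 14.2% of all genes tested were higher and 12.1% lower. *YAP6* had 33.9, 49.3 and 30.4 FPKM in *ths1-C268A* samples A, B and C, against 20.4, 20.9 and 21.3 FPKM in WT samples A, B and C (log2 fold change 0.80, adjusted p = 0.0112 from limma). It lost its call with no filter on low genes (adjusted p = 0.0512 from limma). *CIN5* had 266 FPKM in *ths1-C268A* and 365 FPKM in WT (log2 fold change -0.45, adjusted p = 0.0328 from limma), and *YAP5*, which acts in the response to high iron, had a log2 fold change of 0.30 (0.0208), which was 0.19 with limma-voom (0.114). *YAP5* also lost its call without WT replicate A, B or C (0.0841, 0.0807 and 0.0631), and *CIN5* without WT replicate A, B or C (0.0744, 0.0591 and 0.106) or *ths1-C268A* replicate B (0.0878).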
